A study of Mus musculus with 5 samples.

Results

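The cells described here are inflammatory monocytes of the mouse, picked from a single-cell RNA library pool by their own transcript counts. A cell was taken as a monocyte where it had at least 5 unique molecular identifiers (UMIs, each counting 1 captured transcript) of Lyz2, at least 1 of Csf1r, at least 5 of Ly6c2, Chil3 and Fn1 together, fewer than 20 of the complement genes C1qa, C1qb and C1qc together, at most 1 of the T cell genes Cd3e, Cd3d and Cd3g together, at most 1 of the B cell gene Cd79a, and fewer than 3 of Fscn1. This gave 384 monocytes among the 21531 cells that had at least 200 genes and at most 20% mitochondrial UMIs. They were set against 2970 macrophages, defined only by 20 or more C1q UMIs. The 13 genes of the rule chose the cells, so their values are descriptions.

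The study sorted live CD45+ cells, that is, immune cells, from 3 mice, each of which gave a tumour, the lymph node draining it (dLN) and a lymph node that does not (non-dLN). Mouse 1 received nivolumab_mIgG1_D265A, mouse 2 nivolumab_mIgG1 and mouse 3 the isotype control MOPC21. Nivolumab is an antibody to the inhibitory receptor PD-1, here on a mouse IgG1 backbone, and D265A is an exchange in the Fc part of that backbone known to weaken binding to Fc receptors. The 9 samples carried hashtag antibodies, were loaded as 1 pool and were sequenced with a 5' kit. The sources used here do not tie a hashtag to a mouse or a tissue. The hashtags are therefore numbered in the order of the deposited table and left unassigned, antibodies and tissues were not compared, and 1 animal per antibody leaves no replicate. No test was run. All intervals are 95%, and they cover counting error only.

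Classical monocytes leave the bone marrow through the chemokine receptor CCR2, circulate as Ly6C-high cells and enter inflamed tissue and tumours. There they can lose Ly6C and granule-type transcripts and take on macrophage genes such as C1q, Apoe and MHC class II. They are known as sources of interleukin-1, as sensors of microbial and interferon signals, and as cells that can express arginase 1 or the inducible nitric oxide synthase in tumours.

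Nearly all monocytes sat in 3 of the 9 hashtags. They made up 1.85% of the cells of hashtag 1 (38 of 2056; exact Clopper-Pearson interval 1.31 to 2.53%), 4.82% of hashtag 4 (111 of 2304; 3.98 to 5.77%) and 9.36% of hashtag 7 (231 of 2467; 8.24 to 10.6%). The intervals of the 3 shares do not overlap. The other six hashtags held 3 monocytes among 14446 cells (0.0208%, 0.00428 to 0.0607%), 2 in hashtag 3 and 1 in hashtag 8, and 1 monocyte carried no hashtag. Macrophages were spread the same way, with 533, 876 and 1390 cells in hashtags 1, 4 and 7, so that 14.0, 7.89 and 6.02 macrophages stood beside each monocyte. The results below use the 380 monocytes and 2799 macrophages of hashtags 1, 4 and 7.

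Of the marker genes Ly6c2, Chil3, Ccr2 and Fn1, only Ccr2 had no part in the rule and can check the label. The shares of the other 3 were shaped by the rule and only describe the cells. Ccr2 had a UMI in 73.7% of the monocytes of hashtag 1, 79.3% of hashtag 4 and 88.3% of hashtag 7. Of the rule's own markers, Ly6c2 was seen in 86.8, 96.4 and 93.5% of the monocytes of hashtags 1, 4 and 7, Fn1, which encodes fibronectin, in 76.3, 71.2 and 88.3%, and Chil3, a chitinase-like secreted protein, in 34.2, 51.4 and 50.6%. The rule adds these 3 genes up, so a monocyte need not carry each of them. With every cell thinned to 2000 UMIs, which leaves out 1 monocyte, Ccr2 was seen in 44.7, 51.4 and 56.5% of the monocytes, 15.9, 12.4 and 17.7% of the macrophages and 10.2, 13.5 and 8.56% of the T cells of hashtags 1, 4 and 7. T cells were cells with more than 1 UMI of Cd3e, Cd3d and Cd3g together. They also had at most 1 UMI of Lyz2, none of Csf1r and at most 1 of C1q. Their median depths were 5467, 5160.5 and 6866 UMIs before thinning. Ly6c2 is also a gene of T cells, where its thinned shares were 79.7, 66.6 and 49.2%, against 78.9, 90.1 and 86.1% in monocytes, so it does not mark monocytes alone. Markers of other cells were summed by list. Of 11 neutrophil markers 7 had no UMI in any monocyte, S100a9, Retnlg, Cxcr2 and Ly6g among them. The list summed to 54.8, 97.9 and 65.3 counts per 1000000 UMIs (CPM) in the monocytes of hashtags 1, 4 and 7. Macrophages had 56.6, 46.6 and 23.7 CPM, so the monocyte sum was 2.10- and 2.75-fold higher in hashtags 4 and 7. Of the cells with at least 2000 UMIs, 0, 5.41 and 2.61% of monocytes and 0.759, 0.230 and 0.362% of macrophages had an S100a8 UMI. The conventional dendritic cell list summed to 137, 54.0 and 13.5 CPM in the monocytes of hashtags 1, 4 and 7, against 60.3, 49.2 and 22.9 CPM in macrophages. Its members split: Xcr1 was at 0 in monocytes, while the lectin Cd209a was at 79.1, 30.2 and 2.33 CPM in monocytes, against 0, 0.426 and 0.204 CPM in macrophages, and Clec10a at 42.6, 10.1 and 5.6 CPM against 2.13, 0.852 and 3.55 CPM. The plasmacytoid dendritic cell list summed to 669.6, 863 and 719 CPM in monocytes and 994, 1192 and 881 CPM in macrophages, nearly all of it Bst2, which is also an interferon-stimulated gene, and Siglech was at 0 in monocytes. The T cell list summed to 8.23 to 12.2 CPM in monocytes and 19.3 to 107 CPM in macrophages, and the natural killer list to 6.09 to 11.7 CPM and 28.8 to 186 CPM. The rule limits T cell genes in monocytes but not in macrophages, of which 2567 of 2799 would pass its T, B and Fscn1 limits. The lower sums in monocytes are thus partly built in and do not check the label. The macrophage highs of both lists are in hashtag 1, whose part in the results was not tested.

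The limits cut a range, but few cells lay near the C1q limit. Of the 380 monocytes, 191 had no C1q UMI and 344 had 4 or fewer. Just inside the limit, 22 had 10 to 19 C1q UMIs, and just outside it, 26 cells that met every other condition had 20 to 29. At the other limit, 17 monocytes had 5 or 6 UMIs of Ly6c2, Chil3 and Fn1 together, and 24 otherwise fitting cells had 3 or 4. Monocytes were shallower than macrophages, with median UMIs per cell of 7835, 9200 and 8931 in hashtags 1, 4 and 7, against 12145, 16047.5 and 17585.5 in macrophages. Levels are therefore given as CPM summed over the cells of a class within a hashtag, which takes out depth but cannot say whether a class has less RNA per cell. Hashtag 1 rests on 38 monocytes and 328540 UMIs, hashtag 4 on 1093445 and hashtag 7 on 2143347.

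**Figure D1:**
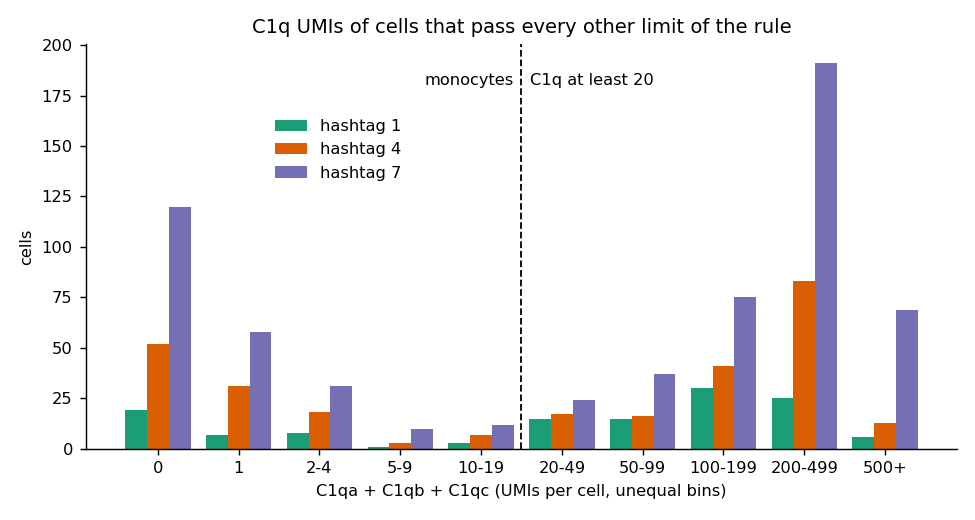
Number of cells (y axis) by summed C1qa, C1qb and C1qc UMIs per cell (x axis, unequal bins) in hashtags 1, 4 and 7, for cells that met every other condition of the rule; the dashed line is the limit of 20 UMIs. At 0 to 4 UMIs lie 344 cells in all, and the bin of 5 to 9 UMIs holds the fewest, 1, 3 and 10 cells in hashtags 1, 4 and 7. The bins widen to the right, so the bar heights do not give cells per UMI and show no gap at the limit.

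Across all genes, 217 of 8615 were at least 2-fold higher in monocytes than in macrophages in each of hashtags 1, 4 and 7 with an interval that left out 1 (2.52% of the genes with at least 50 UMIs in each pair), and 150 were at least 2-fold lower in each (1.74%). Of those 150, 44 had no UMI in the monocytes of at least 1 hashtag, and with each such 0 taken as 3 counts 130 stayed lower. Within single hashtags the shares higher were 7.22, 4.49 and 6.31%, and the shares lower 4.56, 9.55 and 11.9%, in hashtags 1, 4 and 7. Because the cells were separated by their counts, some difference is built in, and these percentages are what a list's count has to be read against. Of the same 8615 genes, 2227 were above 1 and 2790 below 1 in all 3 hashtags, the background for such counts in the lists. The call needs all 3 hashtags, and leaving out hashtag 1 raised the counts most: from hashtags 4 and 7 alone, 329 genes were higher and 513 lower. Hashtag 1 was also the shallowest, and the part of depth was not tested. The median gene had a log2 ratio of 0.03, -0.11 and -0.07 in hashtags 1, 4 and 7, so a log2 ratio near 0 is a level held in common. Among 18 gene lists, the classical monocyte genes had the largest share called higher (15 of 20 tested) and the cell cycle genes the largest share called lower (12 of 19).

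**Figure D2:**
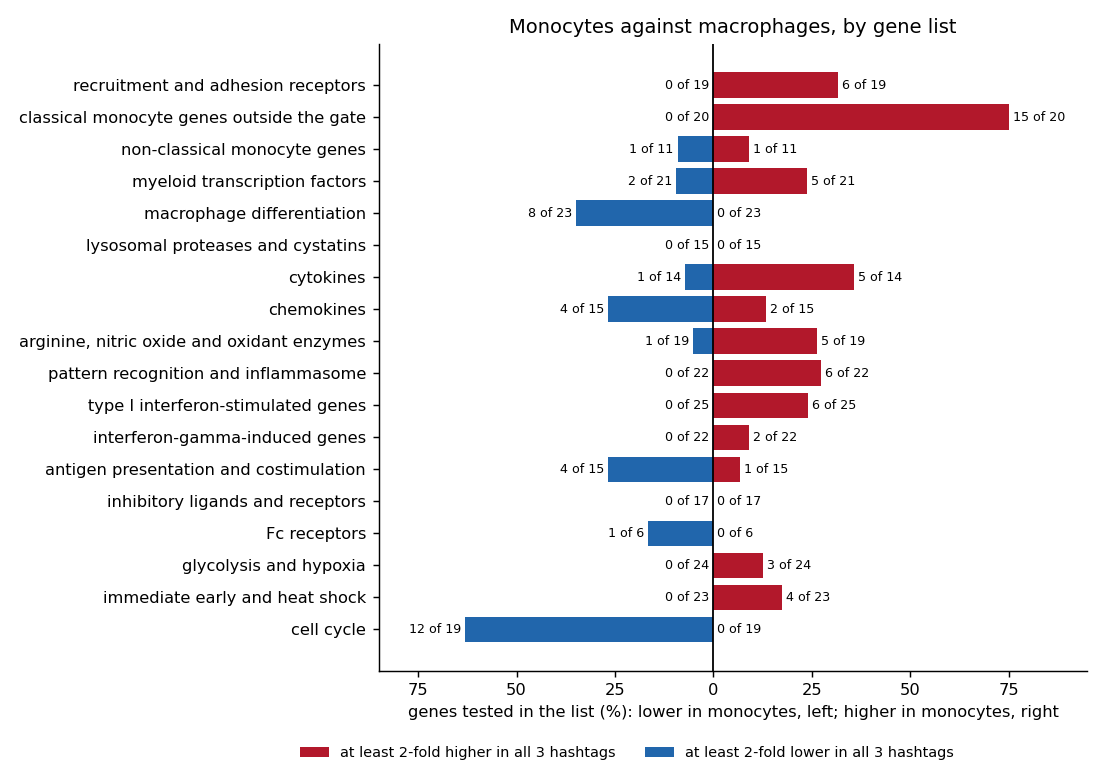
Share of the tested genes of each list (x axis, %) at least 2-fold higher in monocytes than in macrophages (red, right) or at least 2-fold lower (blue, left) in all 3 hashtags; the numbers are genes called of genes tested, and the gate is the rule that chose the cells. The classical monocyte list reaches 15 of 20 on the right, the cell cycle list 12 of 19 on the left, and the lysosomal and inhibitory lists show no call on either side.

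Ccr2 and some other receptors of recruitment were higher in monocytes. Of 19 recruitment and adhesion receptors tested, 6 were called higher and none lower, and 13 were above 1 and 3 below 1 in all 3 hashtags, with list medians of 0.54, 0.30 and 0.74 (log2) in hashtags 1, 4 and 7. Ccr2 (GRCm38 chromosome 9, 124101950 to 124113557, plus strand), the receptor for CCL2 and CCL7, had 490, 397 and 544 CPM in the monocytes of hashtags 1, 4 and 7, against 118, 88.5 and 123 CPM in macrophages, 4.16-, 4.49- and 4.43-fold higher. All 3 monocyte levels lay above all 3 macrophage levels. The hyaluronan receptor Cd44 was 2.01- to 2.67-fold higher and the chemokine receptor Ccr1 2.20- to 2.38-fold higher. Also called were a pair of cytokine receptor chains, Csf2rb, the shared signalling chain for GM-CSF and IL-3, at 286, 279.8 and 272 CPM in monocytes against 83.7, 115 and 80.5 CPM in macrophages, and Il17ra at 97.4, 78.7 and 115 CPM against 28.7, 24.2 and 33.6 CPM. Csf1r, a gene of the rule and the receptor for the macrophage growth factor, was at 587, 745 and 666 CPM in monocytes against 602, 628 and 612 CPM in macrophages.

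The classical monocyte genes formed the sharpest difference. Of 20 tested outside the rule, 15 were called higher and none lower, with medians of 2.39, 2.29 and 2.39 (log2). The list holds 27 genes, and the rest had too few UMIs to be tested. S100a9, a member of the list, had no UMI in any monocyte. Hp, which encodes the haemoglobin-binding protein haptoglobin (chromosome 8, 109575128 to 109579172, minus strand), had 319.6, 303 and 256 CPM in monocytes of hashtags 1, 4 and 7, against 3.26, 2.63 and 1.39 CPM in macrophages, ratios of 97.9, 115 and 184. Plac8, a small cysteine-rich protein of myeloid and lymphoid cells (chromosome 5, 100553725 to 100572245, minus strand), had 2465, 2797 and 3007 CPM against 152, 125 and 67.7 CPM, ratios of 16.2, 22.3 and 44.4. Both genes varied less over the 3 hashtags in monocytes than in macrophages. T cells also carried Plac8, in 71.3, 65.0 and 46.0% of thinned cells, against 73.7, 81.1 and 83.9% of thinned monocytes. F13a1, the coagulation factor XIII A chain, was 21.7-, 15.4- and 17.5-fold higher, and Ifitm6 14.4-, 10.6- and 43.0-fold higher. Thbs1, the matrix protein thrombospondin 1, had 962, 582 and 649 CPM in monocytes against 126, 43.6 and 29.7 CPM in macrophages. Gsr and Mgst1, which keep glutathione reduced and use it, were 6.24- to 9.22-fold and 2.38- to 5.87-fold higher, and the calcium-binding S100a4 and S100a6 2.69- to 5.74-fold and 2.36- to 2.85-fold higher. Only 1 of the 20 was below 1 in all 3 hashtags.

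**Figure D3:**
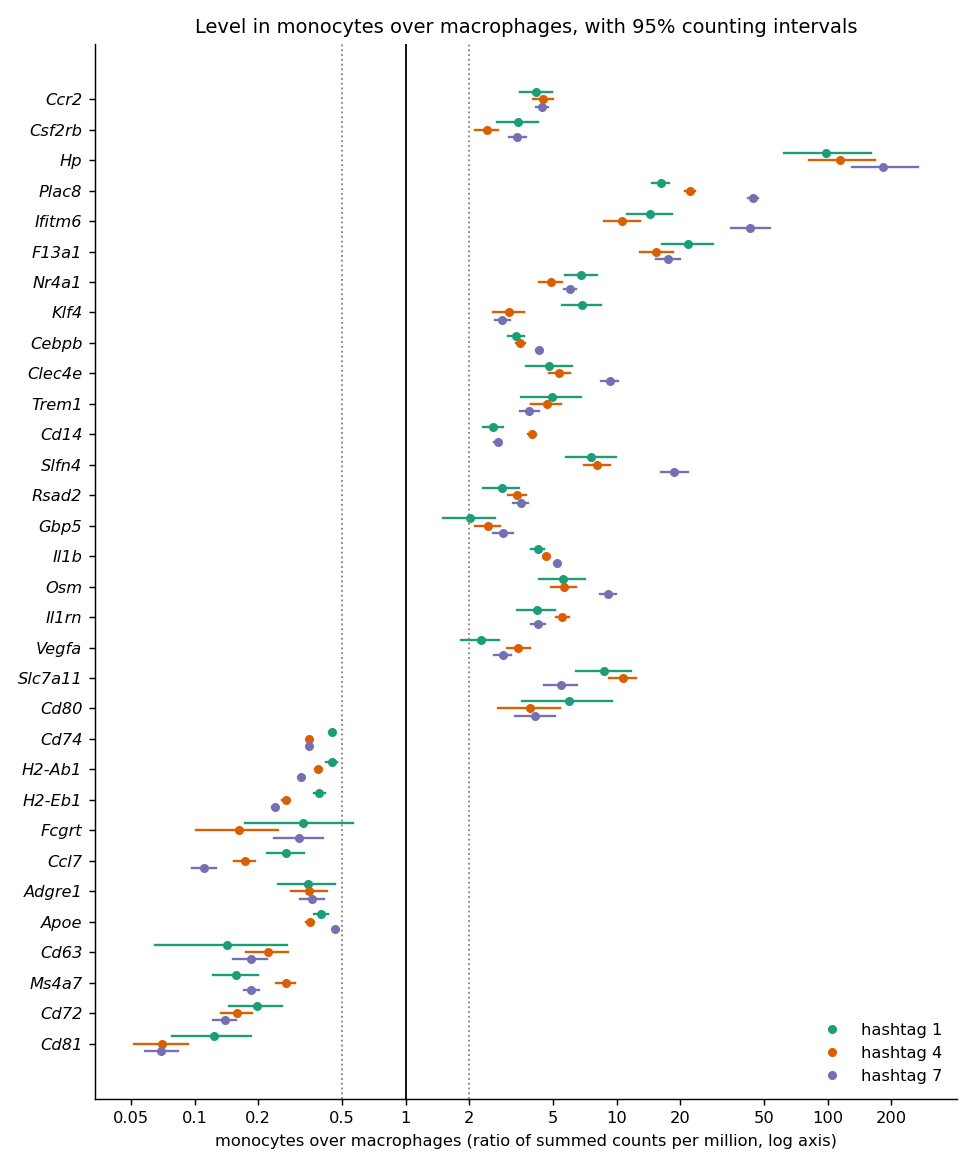
Ratio of summed CPM, monocytes over macrophages (x axis, log scale), for 32 genes in hashtags 1, 4 and 7; points are ratios and bars 95% counting intervals, the solid line marks a ratio of 1 and the dotted lines 2 and 0.5. Genes of recruitment and classical monocytes lie at the right, with Hp at 97.9 to 184, and macrophage genes at the left, with Cd81 at 0.0697 to 0.124.

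Non-classical monocytes, the Ly6C-low cells that patrol vessels, are marked by other genes, and these showed no common direction. Of 11 tested, 1 was called higher and 1 lower, and 3 were above 1 and 5 below 1 in all 3 hashtags. The higher gene was Nr4a1, a nuclear receptor that non-classical monocytes need and that is also an immediate early gene, with 551, 321 and 705 CPM in monocytes against 81.0, 65.9 and 117 CPM in macrophages (6.80-, 4.87- and 6.01-fold). The lower gene was Cd300e, an activating receptor, with 2, 0 and 4 UMIs in monocytes against 49.5, 14.8 and 31.5 CPM in macrophages. In hashtag 4, taking its 0 as a floor of 3 counts, Cd300e was at least 5.41-fold lower in monocytes. Cx3cr1, the fractalkine receptor that is highest on non-classical monocytes, was at 177, 144 and 231 CPM in monocytes against 219.8, 239 and 288 CPM in macrophages and was not called.

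Among 21 transcription factors of myeloid cells, 5 were called higher and 2 lower. Cebpb, a basic leucine zipper factor of inflammatory monocytes, had 1884, 1933 and 2037 CPM in monocytes of hashtags 1, 4 and 7, against 566, 553 and 475 CPM in macrophages, 3.33-, 3.50- and 4.29-fold higher. Klf4, a factor that monocytes need to form, had 371, 163 and 326 CPM against 54.2, 52.9 and 113 CPM, and Bhlhe40 173, 129 and 185 CPM against 50.2, 27.8 and 41.8 CPM. Hif1a, the oxygen-regulated factor, was 2.18- to 2.92-fold higher, and Runx3 2.63- to 3.55-fold higher. The 2 lower factors were Batf3, known for cross-presenting dendritic cells, at 9.13, 14.6 and 9.33 CPM in monocytes against 52.4, 40 and 51.1 CPM in macrophages, and Pparg, a lipid sensor of tissue macrophages, at 2, 3 and 6 UMIs in monocytes against 22.8, 13.4 and 19.7 CPM in macrophages. Irf8 was at 268, 403 and 333 CPM in monocytes and 234, 297 and 234 CPM in macrophages, within 1.15- to 1.42-fold. In the list of immediate early genes and heat shock proteins, 4 of 23 tested (Nr4a1, Nr4a2, Ier3 and Atf3) were called higher and none lower, while Fos, at 1.21- to 1.5-fold, and Jun, at 1.35- to 1.94-fold, stayed under the limit.

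Cd14, Trem1, Nlrp3 and 3 C-type lectins were higher in monocytes. Of 22 pattern recognition and inflammasome genes tested, these 6 were called higher and none lower, with medians of 0.45, 0.78 and 0.83 (log2). Cd14, the co-receptor for bacterial lipopolysaccharide, had 1132, 2496 and 1868 CPM in monocytes against 435, 626 and 684 CPM in macrophages, 2.60-, 3.99- and 2.73-fold higher. The C-type lectin Clec4e had 237, 381 and 348 CPM against 49.4, 71.2 and 37.5 CPM, and its neighbours Clec4d and Clec4n were 2.47- to 5.42-fold and 2.79- to 4.22-fold higher. Trem1, an amplifier of inflammatory signals, was 3.86- to 4.94-fold higher, and Nlrp3, the sensor that assembles the inflammasome, 2.27- to 2.95-fold higher.

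Most type I interferon-stimulated genes had ratios above 1, and 6 passed the limit. Of 25 type I interferon-stimulated genes tested, those 6 were called higher and none lower, 21 were above 1 in all 3 hashtags and 1 was below 1 in all 3. The list medians were 0.36, 0.97 and 1.33 (log2) in hashtags 1, 4 and 7. Slfn4, a schlafen gene of myeloid cells (chromosome 11, 83175186 to 83190216, plus strand), had 222, 287 and 231 CPM in monocytes against 29.2, 35.6 and 12.4 CPM in macrophages, 7.60-, 8.08- and 18.7-fold higher. Ifi205, of the interferon-inducible p200 family, had 249.6, 558 and 378 CPM against 60.4, 94.9 and 47.1 CPM, and the antiviral Rsad2 365, 473 and 342 CPM against 128, 139.5 and 97.4 CPM. Isg20 was 3.26- to 7.54-fold higher, Slfn5 2.30- to 4.28-fold and Cmpk2 2.10- to 3.49-fold. Isg15, at 1.60-, 2.31- and 2.66-fold, and Irf7, at 1.13-, 1.87- and 2.07-fold, missed the limit in hashtag 1 and in hashtags 1 and 4. Of 22 genes known for interferon-gamma, 2 were called higher, the guanylate-binding proteins Gbp2 (2.10- to 3.28-fold) and Gbp5 (2.02- to 2.89-fold), and none lower. Cxcl9, an interferon-gamma-induced chemokine, was at 636, 1023 and 767 CPM in monocytes and 1220.4, 1432 and 1208 CPM in macrophages, 0.521 to 0.715 of the macrophage level.

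The promoters of the called interferon genes were searched for the core of the interferon-stimulated response element, TTTC and TTTC set 2 bases apart, on both strands. The windows run from 250 bases before the start of transcription to 50 after it, from RefSeq on GRCm38.p6. All 6 called genes have a window there, and 3 of the 6 hold a match in at least 1 window, while 3.99% of 27025 genes do. Of the whole list, 20 genes have a window and 10 of them hold a match, equal shares of the called genes and of the list. The 3 windows with a match are shown, 5' to 3' on the gene's strand, with the match in capitals. Ifi205 lies at chr1:174031706-174032005, minus strand, with 2 matches; Rsad2 at chr12:26456403-26456702, minus strand; and Slfn5 at chr11:82951852-82952151, plus strand.
Ifi205: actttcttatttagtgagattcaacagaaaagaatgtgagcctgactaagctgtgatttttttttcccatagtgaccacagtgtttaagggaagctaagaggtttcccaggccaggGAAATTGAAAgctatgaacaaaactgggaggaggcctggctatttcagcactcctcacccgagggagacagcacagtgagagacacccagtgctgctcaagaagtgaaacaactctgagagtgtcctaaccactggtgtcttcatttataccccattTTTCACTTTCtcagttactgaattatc
Rsad2: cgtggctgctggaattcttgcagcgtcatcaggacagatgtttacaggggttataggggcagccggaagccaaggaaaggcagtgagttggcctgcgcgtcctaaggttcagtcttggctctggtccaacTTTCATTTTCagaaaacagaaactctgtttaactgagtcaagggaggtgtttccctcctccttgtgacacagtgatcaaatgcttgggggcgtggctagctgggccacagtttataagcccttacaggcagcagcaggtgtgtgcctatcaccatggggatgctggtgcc
Slfn5: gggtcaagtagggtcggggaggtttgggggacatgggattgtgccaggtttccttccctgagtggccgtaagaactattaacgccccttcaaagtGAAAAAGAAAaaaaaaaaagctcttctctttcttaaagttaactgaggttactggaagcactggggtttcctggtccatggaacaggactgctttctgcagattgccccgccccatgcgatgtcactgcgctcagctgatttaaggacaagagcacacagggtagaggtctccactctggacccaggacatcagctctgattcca

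A form of the palindrome bound by C/EBP factors, TTGCNNAA, was searched for in the same way in the classical monocyte genes, since Cebpb was among the factors called higher. Of the 15 called genes, 10 have a window and 4 hold a match, against 12.2% of the 27025 genes and 6 of the 20 genes of the whole list with a window. A pair of windows is shown with the match in capitals, for Plac8 (chr5:100563047-100563346, minus strand, 1 of its 2 windows), and for Clec4e (chr6:123289822-123290121, minus strand), the lectin described above, both among the called genes. A match of letters is no evidence that a factor binds there.
Plac8: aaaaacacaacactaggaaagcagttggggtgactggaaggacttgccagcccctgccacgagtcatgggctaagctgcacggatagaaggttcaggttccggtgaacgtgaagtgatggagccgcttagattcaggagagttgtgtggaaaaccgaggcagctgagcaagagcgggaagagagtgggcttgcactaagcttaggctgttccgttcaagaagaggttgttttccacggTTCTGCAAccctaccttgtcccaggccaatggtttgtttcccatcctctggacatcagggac
Clec4e: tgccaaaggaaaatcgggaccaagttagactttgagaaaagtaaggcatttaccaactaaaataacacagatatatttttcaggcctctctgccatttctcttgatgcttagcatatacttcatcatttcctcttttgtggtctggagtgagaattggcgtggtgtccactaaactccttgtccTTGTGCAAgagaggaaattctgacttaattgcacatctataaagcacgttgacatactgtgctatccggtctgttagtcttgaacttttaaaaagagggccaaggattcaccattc

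Among secreted factors, Il1b, Osm, Il1rn, Tgfb1 and Vegfa were higher in monocytes, and Ccl7, Ccl8, Ccl12 and Cxcl14 lower. Of 14 cytokines tested, 5 were called higher and 1 lower, and 4 were below 1 in all 3 hashtags. Il1b, the interleukin-1 beta gene (chromosome 2, 129364570 to 129371139, minus strand), had 3169, 2983 and 3281 CPM in monocytes of hashtags 1, 4 and 7, against 749.7, 641 and 630.1 CPM in macrophages, 4.23-, 4.65- and 5.21-fold higher. Its level was near even over the 3 monocyte groups. The gene of its antagonist, Il1rn, had 341, 930.1 and 483 CPM against 81.6, 168 and 114 CPM, and oncostatin M, Osm, 244, 275 and 428 CPM against 43.8, 49.1 and 47.1 CPM. Tgfb1 was 2.26- to 2.31-fold higher and Vegfa, the endothelial growth factor, 2.27- to 3.43-fold. The lower cytokine was Tnfsf13b, which encodes the B cell survival factor BAFF, at 48.7, 47.6 and 17.7 CPM in monocytes against 119, 185 and 133 CPM in macrophages.

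Of 15 chemokines tested, 2 were called higher and 4 lower. Ccl6 had 715, 395 and 576 CPM in monocytes against 176, 134 and 105 CPM in macrophages, and Ccl9 was 2.87- to 3.72-fold higher. The CCR2 ligand Ccl7 had 304, 279 and 108 CPM in monocytes against 1118, 1614 and 973 CPM in macrophages, and Ccl12, another ligand of that receptor in mice, 195, 298 and 103 CPM against 527, 868 and 614 CPM. The receptor Ccr2 was thus higher in monocytes and these 2 of its ligands higher in macrophages. Ccl2 ran the same way, at 432, 881 and 814 CPM against 1117, 1489 and 1103 CPM, but was not called. Ccl8 had 3, 1 and 1 UMIs in monocytes of hashtags 1, 4 and 7, against 121, 103 and 75.9 CPM in macrophages, ratios of 0.0757 (0.0156 to 0.222), 0.00891 (0.000225 to 0.0497) and 0.00615 (0.000155 to 0.0343). Cxcl14 was at 51.7, 12.8 and 34.5 CPM against 126, 98.6 and 173 CPM.

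Enzymes of arginine, nitric oxide and oxidant handling were called higher for 5 of 19 genes and lower for 1. Slc7a11, the cystine importer, had 195, 336 and 82.6 CPM in monocytes against 22.4, 31.5 and 15.2 CPM in macrophages, 8.69-, 10.7- and 5.44-fold higher. Ptgs2, cyclooxygenase 2, had 362, 233 and 274 CPM against 88.8, 79.9 and 66.6 CPM. Its relative Ptgs1 was the lower gene, at 0, 3 and 10 UMIs in monocytes against 13.9, 9.15 and 36.1 CPM in macrophages. That call rests on the 0 of hashtag 1: taken as 3 counts it gives at least 1.52-fold lower there, short of the limit. Ass1, which regenerates arginine, was 2.28- to 2.67-fold higher, Tgm2 2.16- to 2.69-fold and Arg2 3.39- to 16.3-fold. Arg1, arginase 1 (chromosome 10, 24915221 to 24927484, minus strand), was not called: it had 499, 1306 and 689.6 CPM in monocytes against 270, 290.4 and 679 CPM in macrophages, 1.85-, 4.5- and 1.02-fold. Nos2, inducible nitric oxide synthase, was 3.27-, 4.16- and 1.94-fold higher, just under the limit in hashtag 7. Of 24 glycolysis and hypoxia genes, 3 were called higher (Vegfa, Egln3 and Ndrg1) and none lower, and Ldha was at 0.833 to 1.21 of its macrophage level.

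The MHC class II genes H2-Eb1, H2-Ab1 and H2-Aa and the invariant chain Cd74 were lower in monocytes. Of 15 genes of presentation and costimulation, 4 were called lower, all of the class II pathway, and 1 higher. H2-Eb1 (chromosome 17, 34305867 to 34316674, plus strand) had 3719, 2452 and 1627 CPM in monocytes of hashtags 1, 4 and 7, against 9514, 9037 and 6764 CPM in macrophages, ratios of 0.391, 0.271 and 0.241. H2-Ab1 stood at 0.447, 0.386 and 0.319 of its macrophage level, H2-Aa at 0.470, 0.385 and 0.348, and the invariant chain Cd74 at 0.449, 0.348 and 0.348. The higher gene was Cd80, which costimulates T cells through CD28 and also binds CTLA-4, with 70.0, 43.0 and 53.7 CPM in monocytes against 11.8, 11.1 and 13 CPM in macrophages, 5.95-, 3.88- and 4.12-fold. Cd86, its partner, was 2.32-, 1.43- and 2.15-fold higher and was not called.

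None of 17 inhibitory ligands and receptors passed in either direction in all 3 hashtags. Cd274, which encodes the PD-1 ligand PD-L1, had 459.6, 614 and 294 CPM in monocytes against 329, 385 and 185 CPM in macrophages, 1.40-, 1.59- and 1.59-fold, with intervals of 1.18 to 1.65, 1.47 to 1.73 and 1.46 to 1.73. Pdcd1lg2, for PD-L2, had 5, 13 and 32 UMIs in monocytes, and ratios of 1.18, 0.483 and 2.49. Of 6 Fc receptors, which bind the constant part of antibodies, 1 was called lower: Fcgrt, the neonatal Fc receptor that recycles IgG, at 39.6, 20.1 and 27.1 CPM against 121, 123 and 86.5 CPM. Fcgr1 was at 529.6, 892 and 761 CPM in monocytes against 607, 667 and 536 CPM in macrophages, and Fcgr4 at 536, 488 and 390 CPM against 917, 808 and 607 CPM, both under the 2-fold limit.

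A set of macrophage genes outside the rule was lower in monocytes. Of 23 differentiation genes tested, 8 were called lower and none higher, and 4 were above 1 and 17 below 1 in all 3 hashtags, with medians of -1.10, -0.81 and -1.11 (log2). Cd81, a tetraspanin, had 70.0, 43.9 and 57.9 CPM in monocytes against 566, 624 and 829 CPM in macrophages, ratios of 0.124, 0.0704 and 0.0697. Cd72 had 155, 134 and 118 CPM against 789, 838 and 847 CPM, and Ms4a7 216, 333 and 283 CPM against 1372, 1232 and 1519 CPM. Apoe, the lipid carrier, kept a high level in monocytes, 2419.8, 1672 and 2031 CPM against 6084, 4749 and 4371 CPM, and Adgre1, which encodes F4/80, had 134, 98.8 and 112 CPM against 388, 282 and 309 CPM. The lysosomal proteases and cystatins were not called in either direction (0 of 15), although 13 of the 15 were below 1 in all 3 hashtags. Of 19 cell cycle genes, 12 were called lower (10 with each 0 taken as 3 counts, when Ccna2 and Cenpf drop out) and none higher, and all 19 were below 1 in all 3 hashtags. Top2a, the topoisomerase of dividing cells, had 2, 4 and 16 UMIs in monocytes against 39.9, 37.0 and 82.4 CPM in macrophages, and Ube2c 1, 2 and 7 UMIs against 44.1, 40.7 and 52.6 CPM. Mki67 had no UMI in the monocytes of hashtag 1, which with a floor of 3 counts makes it at least 4.35-fold lower there, and was at 4.57 and 13.1 CPM in hashtags 4 and 7, against 43.6 and 69.7 CPM in macrophages.

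Outside the lists, the highest genes by their smallest ratio over the 3 hashtags were led by Slpi, a secreted inhibitor of leukocyte proteases, with 280, 539 and 137 CPM in monocytes against 4.68, 7.81 and 1.35 CPM in macrophages, 59.8-, 69.0- and 102-fold higher. Gm9733 followed at 20.8-, 16.3- and 39.1-fold, then Mcemp1, a membrane protein of myeloid cells, at 12.8-, 10.5- and 14.4-fold, and Met, the hepatocyte growth factor receptor, at 9.60-, 16.0- and 18.1-fold. B3gnt5, 4930523C07Rik, the adenosine receptor Adora2b, Ly6i, the phospholipase Plcb1 and the cell cycle regulator Rgcc completed the 10, with ratios from 6.28 to 53.1. Of these, 4930523C07Rik was also seen in T cells, at 152, 181 and 183 CPM, above its level in monocytes of 140, 101 and 102 CPM. Among the 10 lowest were Gbp2b, with 27.4, 19.2 and 8.40 CPM in monocytes against 259.8, 203 and 102 CPM in macrophages, the prostaglandin D synthase Hpgds, with 12.2, 5.49 and 12.1 CPM against 99.3, 106 and 94.8 CPM, and Slamf9, with 73.1, 77.7 and 97.0 CPM against 384, 414 and 536 CPM. Klra17, the adaptor Blnk, Smagp, Col14a1, Negr1, Cdca3 and Sh2d1b1 were the others. Gbp2b and the called Gbp2 are close relatives whose reads the authors' counting could have split, so the opposite directions of the 2 are uncertain. The same limit on splitting holds for Ly6i and Ly6c2 and for the schlafen genes.

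Within the monocytes, the levels were set out by C1q count. In thinned cells, C1qa was seen in 13.2, 9.01 and 5.65% of the monocytes of hashtags 1, 4 and 7. In the T cells of these hashtags the shares were 3.92, 4.12 and 4.81%. T cells were chosen with at most 1 C1q UMI, which caps that share, so it is no free background. The intervals of monocytes and T cells overlap in each hashtag, but the cap leaves nothing to read from that. How far counts of 1 to 4 are background was not tested. From no C1q UMI to 1 to 4, Plac8 stood at 3235 and 2069 CPM in hashtag 1, 3153 and 2149 CPM in hashtag 4 and 3452 and 2832 CPM in hashtag 7. The class II sum over the same bins was 24913 and 34159 CPM, 19122 and 21380.4 CPM, and 14966 and 12663 CPM, so it had no common direction. Hp, at 376, 372 and 269 CPM with no C1q UMI, was at 4.48, 14.4 and 13.5 CPM in the macrophages with 20 to 49. Cd81 was at 19.1, 32.9 and 59.3 CPM in monocytes without C1q, 210.4, 126 and 190.4 CPM in macrophages with 20 to 49 and 589.7, 644 and 849 CPM in those with 50 or more. The bins of 5 to 9 and 10 to 19 hold 1 to 12 monocytes a hashtag, and no trend is read from them. In hashtag 1 their 1 and 3 monocytes had no Ly6c2, Chil3 or Hp UMI but 15 and 57 Fn1 UMIs. Those cells met the rule through Fn1 alone. In hashtags 4 and 7 both bins held Ly6c2, at 1371 to 6853 CPM.

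Some macrophages also carried the genes that chose the monocytes. Of the 2799 macrophages, 765 had at least 5 UMIs of Ly6c2, Chil3 and Fn1 together, 129, 202 and 434 in hashtags 1, 4 and 7, and many of their levels lay between those of monocytes and of the other macrophages. This held for 199, 207 and 201 of the 217 genes higher in monocytes (91.7, 95.4 and 92.6% in hashtags 1, 4 and 7) and for 118, 112 and 124 of the 150 lower genes (78.7, 74.7 and 82.7%). Over all 8615 genes the share between, in either direction, was 50.3, 53.0 and 57.6%. The shares of the called genes are partly fixed by the choice of genes and cells, since the calls were made against macrophages that include these 765, and nothing is read from them. Plac8 had 2465, 2797 and 3007 CPM in monocytes, 482, 404 and 169 CPM in these macrophages and 34.2, 32.2 and 18.5 CPM in the rest. The 4 class II genes together had 27710.5, 21417 and 15397 CPM in monocytes, 52409, 47708 and 40763 CPM in these macrophages and 66177, 66351 and 49788 CPM in the rest. Arg1 did not follow this order in 2 of the 3 hashtags: it had 499 CPM in monocytes, 599 CPM in the macrophages with monocyte genes and 153 CPM in the rest in hashtag 1, and 689.6, 1177 and 437 CPM in hashtag 7, but 1306, 596 and 188 CPM in hashtag 4. In hashtag 1 the intervals of the first 2 levels overlap, at 426 to 582 and 564 to 635 CPM. Scrublet, a doublet caller, called 184 of all cells (0.855%) and none of the monocytes or macrophages. The macrophages with monocyte genes had median depths of 12775, 17050.5 and 17809.5 UMIs, against 11948, 15795 and 17362 UMIs in the rest, and the part of joined cells or free RNA was not tested.

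**Figure D4:**
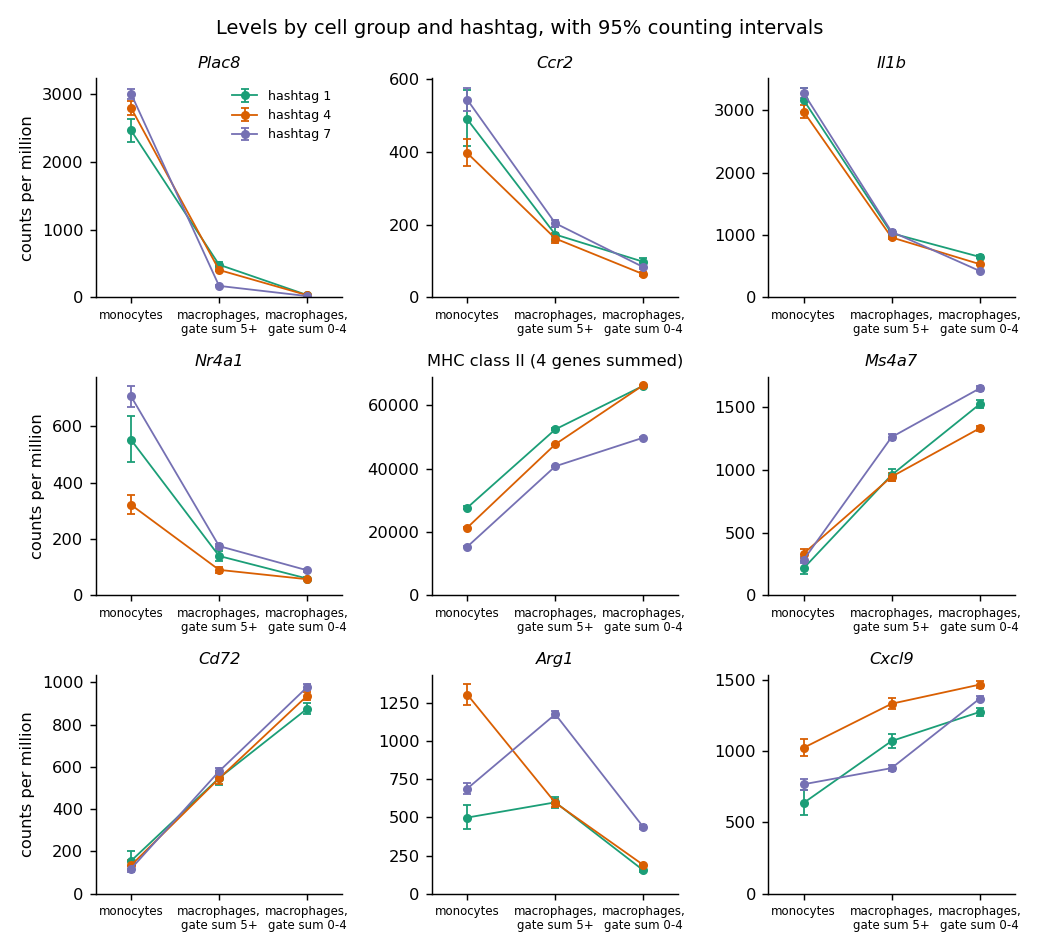
Level (y axis, CPM with 95% counting intervals) of 8 genes and of the summed 4 class II genes in monocytes, in macrophages with at least 5 UMIs of Ly6c2, Chil3 and Fn1 together (the gate sum of the axis) and in macrophages with 0 to 4, in hashtags 1, 4 and 7. Most panels show the 765 macrophages with monocyte genes at a middle level, and Arg1 is highest in that group in hashtags 1 and 7.

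Monocytes were next compared among hashtags 1, 4 and 7. Of 4915 genes with at least 50 UMIs in the highest and lowest hashtag together, 496 (10.1%) were at least 2-fold apart with an interval that left out 1. Single cells weigh heavily in this count. When each gene was recounted without the 1 monocyte that held most of its UMIs in the highest hashtag, 258 genes passed, and 240 of the 496 kept their call and their highest hashtag. Of the 496, 237 were highest in hashtag 1, 140 in hashtag 4 and 119 in hashtag 7. Of the 240 that kept their call, 70 were highest in hashtag 1, 89 in hashtag 4 and 81 in hashtag 7. The count of genes apart was 158 without hashtag 1, 306 without hashtag 4 and 258 without hashtag 7. Of the 293 list genes tested, 58 were apart, and 35 kept that call without their top cell, 27 of them highest in hashtag 4, 6 in hashtag 7 and 2 in hashtag 1. In those 35, macrophages were at least 2-fold higher in the same direction between the same hashtags for 11 genes, less than 2-fold for 18, and not higher for 6. All 6 apart among 20 pattern recognition genes were highest in hashtag 4, and 5 kept the call. None of 19 recruitment receptors and none of 5 Fc receptors was apart.

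Hashtag 4 stood highest for arginine and oxidant enzymes. Of 18 such genes tested, 9 were apart, 8 of them highest in hashtag 4, and 7 of the 9 kept the call without their top cell. Arg1 had 1306 CPM in hashtag 4, against 499 CPM in hashtag 1 and 689.6 CPM in hashtag 7, while macrophages had 290.4, 270 and 679 CPM in hashtags 4, 1 and 7. Monocytes and macrophages thus differed in which hashtag was highest. Nos2 had 238 CPM in hashtag 4, 137 CPM in hashtag 1 and 42.0 CPM in hashtag 7, and Slc7a11 336, 195 and 82.6 CPM in the same order. Both were also highest in hashtag 4 among macrophages. After every cell had been thinned to 2000 UMIs, Nos2 was seen in 26.1% of the monocytes of hashtag 4 (interval 18.2 to 35.3%), 13.2% of hashtag 1 (4.41 to 28.1%) and 3.91% of hashtag 7 (1.8 to 7.3%), and in at most 0.686% of T cells, which serve as the background. Before thinning the shares were 45.0, 18.4 and 14.3%. Arg1 and Nos2 were seen together in 19 of 111 thinned monocytes of hashtag 4, with Arg1 alone in 31 and Nos2 alone in 10. In hashtag 7 both were seen in 4 of 230, Arg1 alone in 58 and Nos2 alone in 5.

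Hilpda, a lipid droplet protein induced by low oxygen, had 265 CPM in the monocytes of hashtag 4, 27.4 CPM in hashtag 1 and 40.6 CPM in hashtag 7, against 31.4, 36.3 and 33.4 CPM in macrophages. It was also at 146 to 182 CPM in T cells, where it did not follow that order. Cd36, the fatty acid transporter and scavenger receptor, had 128 CPM in hashtag 4, 42.6 CPM in hashtag 1 and 10.3 CPM in hashtag 7, from 140, 14 and 22 UMIs. Clec4d had 554, 158 and 230.5 CPM in hashtags 4, 1 and 7, Cd14 2496, 1132 and 1868 CPM, Il1rn 930.1, 341 and 483 CPM and Cxcl2, a neutrophil chemokine, 2455, 1135 and 1254 CPM. The formyl peptide receptor Fpr1 had 65 UMIs in hashtag 4, 5 in hashtag 1 and 16 in hashtag 7. Il1a had 66 UMIs in hashtag 4 and 106 in hashtag 7 (60.4 and 49.5 CPM), but 1 in hashtag 1 (3.04 CPM, interval 0.0771 to 17.0).

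Hashtag 7 stood highest for fewer list genes, 14 against 38 for hashtag 4. Spp1, which encodes osteopontin, had 466 CPM in hashtag 7, against 143 CPM in hashtag 1 and 150 CPM in hashtag 4, and 23.1% of its UMIs in hashtag 7 came from 1 monocyte. Macrophages had 182, 42.0 and 139 CPM in hashtags 7, 1 and 4, and T cells 140.3, 135 and 155 CPM. In hashtag 1 the macrophage level of Spp1 lay below the T cell level, so T cells give no background for this gene. The part of free RNA in the Spp1 levels was not tested. Nr4a1 had 705, 551 and 321 CPM in hashtags 7, 1 and 4, and Egr2, another immediate early factor, 72, 1 and 5 UMIs. Icosl, the ligand of the T cell receptor ICOS, had 59, 1 and 15 UMIs, and Pglyrp1, a peptidoglycan-binding protein, 101, 2 and 21 UMIs in the same order, but T cells held Pglyrp1 at 418 to 501 CPM. Of the 6 list genes highest in hashtag 1, H2-Eb1 and Klf4 kept that call without their top cell. H2-Eb1 had 3719 CPM in hashtag 1, 2452 CPM in hashtag 4 and 1627 CPM in hashtag 7, an order that macrophages shared at 9514, 9037 and 6764 CPM. The conventional dendritic cell list had the same order in monocytes, and its part was not tested.

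**Figure D5:**
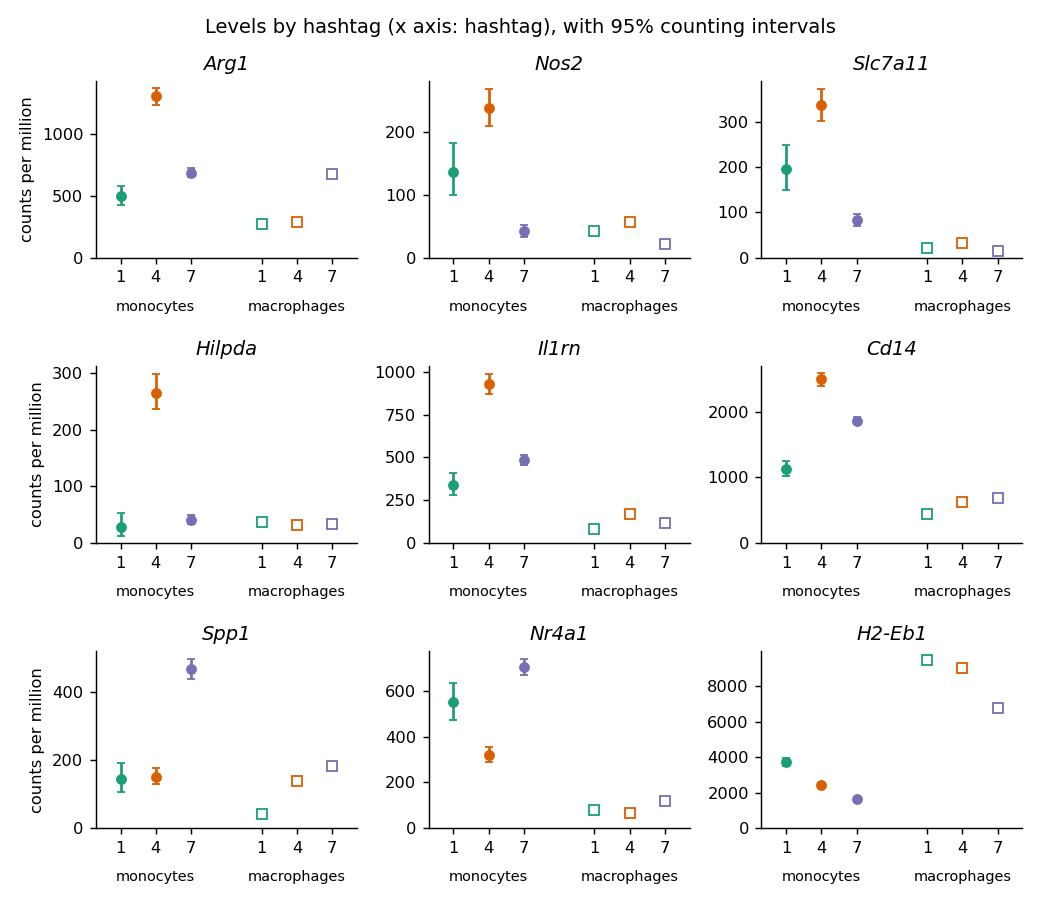
Level (y axis, CPM with 95% counting intervals, many smaller than the symbol) of 9 genes in monocytes (filled circles, left) and macrophages (open squares, right) of hashtags 1, 4 and 7. Arg1, Nos2, Slc7a11, Hilpda, Il1rn and Cd14 are highest in the monocytes of hashtag 4, Spp1 and Nr4a1 in hashtag 7 and H2-Eb1 in hashtag 1.

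Gpnmb and Cxcl3 rest on single cells. Of the Gpnmb UMIs in hashtag 7, 93.1% came from 1 monocyte, and of the Cxcl3 UMIs in hashtag 4, 70.6%. Cxcl3 had no UMI in hashtag 1 and 51 in hashtag 4, at least 5.11-fold higher with a floor of 3 counts. Outside the lists, the 10 genes furthest apart were Srxn1, Tnfaip6, Aifm2, Cdca4, Yars, Cyp51, Smyd3, Atp6v0a1, Tmem170b and Rfx3. Srxn1, which repairs oxidised peroxiredoxins, had 0, 58 and 35 UMIs in hashtags 1, 4 and 7, so that hashtag 4 was at least 5.81-fold above hashtag 1. Tnfaip6, a matrix protein induced by tumour necrosis factor, had 3, 60 and 98 UMIs. Without its top cell, which held 17.2% of the UMIs of hashtag 4, Srxn1 was still highest in hashtag 4 but had under 50 UMIs, and Tnfaip6 was 5.01-fold apart with its highest level in hashtag 7.

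Within a hashtag, the monocytes themselves were uneven. Class II UMIs per cell, scaled to 10000 UMIs and summed over the 4 genes, had medians of 107, 84.0 and 43.7 in hashtags 1, 4 and 7, with quartiles of 18.1 and 345, 8.09 and 322, and 7.66 and 197. Arg1 was more concentrated: 24 of 38, 47 of 111 and 140 of 231 monocytes had none, and the 5 monocytes richest in it held 67.1, 36.3 and 29.8% of its UMIs. Il1b was widespread, with none in 8, 12 and 27 monocytes.

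Monocytes with at least 3 Chil3 UMIs were then set against those with none, a split chosen after the values had been seen, in hashtags 4 (40 and 54 cells) and 7 (73 and 114 cells). Hashtag 1 had 8 and 25 and was left out. Chil3 is a gene of the rule, so monocytes without it entered through Ly6c2 and Fn1, and the split only describes the members. Chil3-rich monocytes held more Hp and Mgst1 and less class II. Of 2777 genes, 6 (0.216%) were at least 2-fold higher and 15 (0.540%) at least 2-fold lower in both hashtags. The higher genes included Hp, Mgst1, Gm9733, Setdb2 and Tarm1. Hp had 621 CPM in Chil3-rich and 143 CPM in Chil3-free monocytes of hashtag 4, and 514 and 144 CPM in hashtag 7, 4.35- and 3.57-fold higher. H2-Eb1 had 1089 CPM in Chil3-rich and 3793 CPM in Chil3-free monocytes of hashtag 4, and 661 and 2033 CPM in hashtag 7, ratios of 0.287 and 0.325. H2-Aa, H2-Ab1, Cd74 and Cd72 were lower too, along with Abca1, a cholesterol exporter, and 9 more genes. Ccr2, at 1.58- and 1.19-fold, and Il1b, at 1.08- and 0.939-fold, did not reach the limit. Nor did Plac8, at 1.80- and 1.36-fold. F13a1 (3.59- and 1.54-fold), Ifitm6 (4.47- and 1.93-fold) and Thbs1 (3.70- and 1.66-fold) reached it only in hashtag 4. The 2 sides had like depth, with median UMIs of 8506.5 and 9452 in hashtag 4 and 8931 and 9083.5 in hashtag 7, and a median C1q count of 0 in Chil3-rich and 1 in Chil3-free monocytes.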

How the data were processed

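Live CD45+ cells of 9 samples were measured as 1 pool with 4 gene expression libraries and 1 hashtag library. The authors deposited a table of UMI counts per feature and cell, whole numbers with no normalization, made with Cell Ranger 8.0.1 against mm10, per the submitters' processing notes and the labels. It holds 21624 barcodes, 27998 genes and 9 hashtags. The 93 barcodes under 200 genes or over 20% mitochondrial UMIs were removed. Cells under 500 UMIs were to be removed too, per the series' design text, and none was. Hashtags came from the antibody capture counts, with the top count at least 3 times the second, and 258 cells had none. No barcode occurs more than once. The tags are called TotalSeq-B in the table and TotalSeq-C in the labels.

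Levels are UMIs summed over a class's cells within a hashtag, per 1000000. Intervals are exact Poisson for levels, exact conditional binomial for ratios and exact Clopper-Pearson for shares, all 95%. A call needed a ratio of 2 or more, or 0.5 or less, an interval that left out 1 and 50 UMIs in the pair. Calls used a count of 0 as it stands. Bounds, medians and means of log2 ratios took it as a floor of 3 counts. The 18 lists hold 357 genes, 354 of them in the table, and 3 were matched by identifier under another symbol. Named are up to 4 genes per list with the largest mean log2 ratio among those called in all 3 hashtags, genes whose role the text needs, 10 in each direction outside the lists by their smallest ratio, and the 10 list and 10 other genes furthest apart between hashtags. Members and lists were chosen with earlier results of these data known. Doublets were called with Scrublet in scanpy 1.11.5 at an expected 8%. Calculations used Python 3.11.15, numpy 2.4.6, scipy 1.17.1 and pandas 2.3.3, and figures matplotlib 3.10.9. The calling was tested on simulated Poisson counts without spread between cells or choice of cells by counts. That test cannot tell how single rich cells or the rule act on the calls. Positions are from GENCODE release M21 (GRCm38). Cebpd, Clec7a, Mx2 and the markers Trac, Trbc2 and Ighm were not analysed here. A gene of these lists is not reported here.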

Additional observations from a re-analysis of the deposited data

Results flagged for a closer look

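Between monocytes and macrophages, 21 of the 8615 genes were at least 2-fold higher in 1 hashtag and at least 2-fold lower in another, and 2 of them belong to the lists. Mmp12, a macrophage elastase, had monocyte over macrophage ratios of 1.34 in hashtag 1, 3.11 in hashtag 4 and 0.401 in hashtag 7. Its monocyte levels were 15.2, 61.3 and 13.1 CPM, against 11.3, 19.7 and 32.5 CPM in macrophages, and 67.2% of its monocyte UMIs in hashtag 4 came from 1 cell. Pdcd1lg2, which encodes the PD-1 ligand PD-L2, had ratios of 1.18, 0.483 and 2.49 in hashtags 1, 4 and 7, from monocyte levels of 15.2, 11.9 and 14.9 CPM against 12.9, 24.6 and 5.99 CPM in macrophages. The differences between hashtags were not tested.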

How the results depend on the processing

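The number of monocytes, in all and in each hashtag, stayed within 1.5 times under every alternative run: other limits on Ly6c2, Chil3 and Fn1 or on C1q, limits on scaled counts, doublets removed, other hashtag ratios, multiplexing capture counts and a 500-gene minimum. The counts of genes moved with the fold and UMI limits and with the hashtags used. With a fold limit of 1.5, 423 genes were higher, 254 lower and 1148 apart between hashtags, and with a limit of 3, 74, 75 and 117. A minimum of 20 UMIs left 880 genes apart, and a minimum of 200 left 134 higher and 100 apart, since it sets how many are tested. Without 1 hashtag, 237 to 329 genes were higher, 187 to 513 lower and 158 to 306 apart. Without each gene's top cell 258 were apart, an alternative chosen after seeing the data, as were the multiplexing counts, zeros taken as 3 counts (130 lower) and macrophages without monocyte genes. Of 975 log2 ratios of 75 named genes under 13 alternatives, none reversed and 37 left their interval. No paired analysis was possible because the hashtags are unassigned and carry no replicate numbers. Hashtag 1 rests on the fewest monocytes, 38, and the part of depth was not tested.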
